A study of Mus musculus with 7 samples.

Results

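The genes described here are the Toll-like receptors and the nucleotide-binding oligomerization domain (NOD) receptors, with the signal transducers next to them, in Paneth cells (PCs). They were given as a list of names, Tlr1, Tlr2, Tlr3, Tlr4, Tlr5, Tlr9, Nod1, Nod2, Ripk2 and Myd88, which makes 10 of the 55414 gene identifiers in the count table. PCs sit at the bottom of the crypts of the small intestine and secrete granules of antimicrobial proteins. They had been purified with a cell sorter from the small intestine of C57BL/6J mice, 15 h after the mice received tumour necrosis factor (TNF), a pro-inflammatory cytokine, or phosphate-buffered saline (PBS) as control. Bulk RNA sequencing gave 3 PBS and 4 TNF libraries, each from a different mouse. No engineered allele is named for either group, and the sources used here do not give the dose, the age and sex of the mice or the sorting gate. The question was how TNF changes the PC transcriptome, and here its part for microbial sensing.

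Toll-like receptors are membrane proteins that bind microbial molecules with a leucine-rich repeat domain and signal through a Toll/interleukin-1 receptor domain. Tlr2 with Tlr1 recognizes bacterial lipopeptides, Tlr4 recognizes lipopolysaccharide and Tlr5 recognizes flagellin, whereas Tlr3 and Tlr9 recognize double-stranded RNA and unmethylated CpG DNA in endosomes. All of them except Tlr3 signal through the adaptor Myd88. Tlr3 uses the adaptor Ticam1, also called TRIF, and Tlr4 uses both adaptors. Nod1 and Nod2 are cytosolic receptors for fragments of bacterial peptidoglycan, and both signal through the kinase Ripk2. PCs are known for their expression of Nod2, and Myd88 signaling in PCs is known to drive expression of antimicrobial proteins such as Reg3g.

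Stretches of promoter sequence are shown for 5 of these genes, because binding letters for factors that act after TNF or interferon were searched in them. The sequences are from RefSeq, on the mouse build GRCm38.p6, and the promoter table held 10 start sites of 8 of the 10 genes, all but Tlr4 and Ripk2. The 250 bases before each start site were searched on both strands for 3 motifs. These were a kappa-B form for NF-kB (GGG and TTCC with any 3 bases between), an interferon-stimulated response element, ISRE (TTTC and TTTC with any 2 bases between), and a gamma-activated site, GAS (TTC and GAA with any 3 bases between). The sequences are written 5′ to 3′ on the strand of the gene, and capitals mark a match. For Tlr2 and Tlr3, the only genes with a kappa-B match among the 8 searched, the 30 bases around it are shown.
Tlr2, chr3:83841762-83841791, minus strand: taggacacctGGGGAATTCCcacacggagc
Tlr3, chr8:45410572-45410601, minus strand: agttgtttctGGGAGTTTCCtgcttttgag
For Myd88, the whole 250 bases before the start are shown, since they held both a GAS and an ISRE match, which overlap each other and lie between 46 and 31 bases before the start.
Myd88, chr9:119340019-119340268, minus strand: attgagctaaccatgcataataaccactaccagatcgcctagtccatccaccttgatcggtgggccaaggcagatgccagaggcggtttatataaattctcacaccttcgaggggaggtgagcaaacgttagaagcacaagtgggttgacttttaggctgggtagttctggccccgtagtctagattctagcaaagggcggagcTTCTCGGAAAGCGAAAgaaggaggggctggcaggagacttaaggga
For Nod2 and Tlr5, which changed in opposite directions, the part of the window outside the annotated gene is shown, and it holds no match.
Nod2, chr8:88647097-88647314, plus strand: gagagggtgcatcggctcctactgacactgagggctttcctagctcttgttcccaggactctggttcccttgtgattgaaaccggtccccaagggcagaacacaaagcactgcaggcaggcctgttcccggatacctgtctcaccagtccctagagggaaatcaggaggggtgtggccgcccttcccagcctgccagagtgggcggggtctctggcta
Tlr5, chr1:182954538-182954751, plus strand: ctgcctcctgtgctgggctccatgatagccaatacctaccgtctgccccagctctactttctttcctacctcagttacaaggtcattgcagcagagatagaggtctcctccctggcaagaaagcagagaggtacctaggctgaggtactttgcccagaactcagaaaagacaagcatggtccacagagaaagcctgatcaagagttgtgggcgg

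Of all 32851 promoter windows of the same length, 4.65% held the kappa-B letters, 2.98% the ISRE letters and 7.02% the GAS letters. The letters had been chosen with the promoter windows in view, so these shares do not test the matches shown. Besides Myd88, Tlr1 and Nod1 held a GAS match, each at 1 of its start sites. A match describes the letters only and shows no binding, and a window without a match does not bear on the factor.

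The libraries held 15511455 to 19193721 counts. Levels are given as CPM, that is counts scaled to 1000000 per library after TMM normalization (trimmed mean of M-values), and the libraries are named in replicate order, PBS 1 to 3 and TNF 1 to 4. The PC markers summed to 173436 to 287316 CPM in the PBS libraries and to 181055 to 335864 CPM in the TNF libraries. Of these 10 markers, Mmp7, Defa22 and Defa21 were called higher and Clps, Habp2 and Mptx2 lower. The 11 leukocyte markers summed to 25.2 to 33.3 CPM after PBS and to 22.8 to 30.2 CPM after TNF, with the T cell gene Cd3e at 0 counts in every library and the B cell gene Cd79a at no more than 5 counts over all libraries. Markers of other epithelial cells moved with the treatment. Tuft cell markers (6 of 6 lower) summed to 1507 to 2467 CPM after PBS and to 286 to 746 CPM after TNF. Goblet cell markers were lower in 4 of 6 (Fcgbp, Clca1, Zg16 and Tff3) and higher in 1 (Spdef), with a median log2 fold change of -2.50 and sums of 6669 to 12821 CPM against 6169 to 6791 CPM. Enterocyte markers (4 of 5 tested lower, 43.1 to 122 CPM against 6.54 to 10.01 CPM), stem cell markers (5 of 5 lower, 2546 to 3693 CPM against 999 to 1627 CPM) and 1 of 6 enteroendocrine markers were lower too. The part of these changes in the results was not tested. In bulk RNA, fewer cells of a type and less RNA per cell cannot be told apart.

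All 10 genes passed the filter on low counts. Tlr1, Tlr2, Tlr3, Tlr4, Nod2, Ripk2 and Myd88 rose after TNF, Tlr5 fell, and Tlr9 and Nod1 did not pass the test. Thus 7 of 10 were called higher and 1 of 10 lower by the quasi-likelihood test of edgeR (adjusted p under 0.05 over all genes), against 29.5% higher and 30.1% lower, 59.6% together, of the 14329 genes tested. All 7 rises were at least 2-fold, which held for 14.4% of tested genes. In 8 of 10 the TNF libraries did not overlap the PBS libraries, against 60.7% of tested genes. The median log2 fold change was 2.37 over the 10 genes and 0.002 over all tested genes. The 10 genes had been chosen with earlier results of these data known, so the contrast with all genes is only a description. Scaling by total counts moved the median of all genes to -0.163 and left the direction and call of each of the 10 genes as they were.

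**Figure D1:**
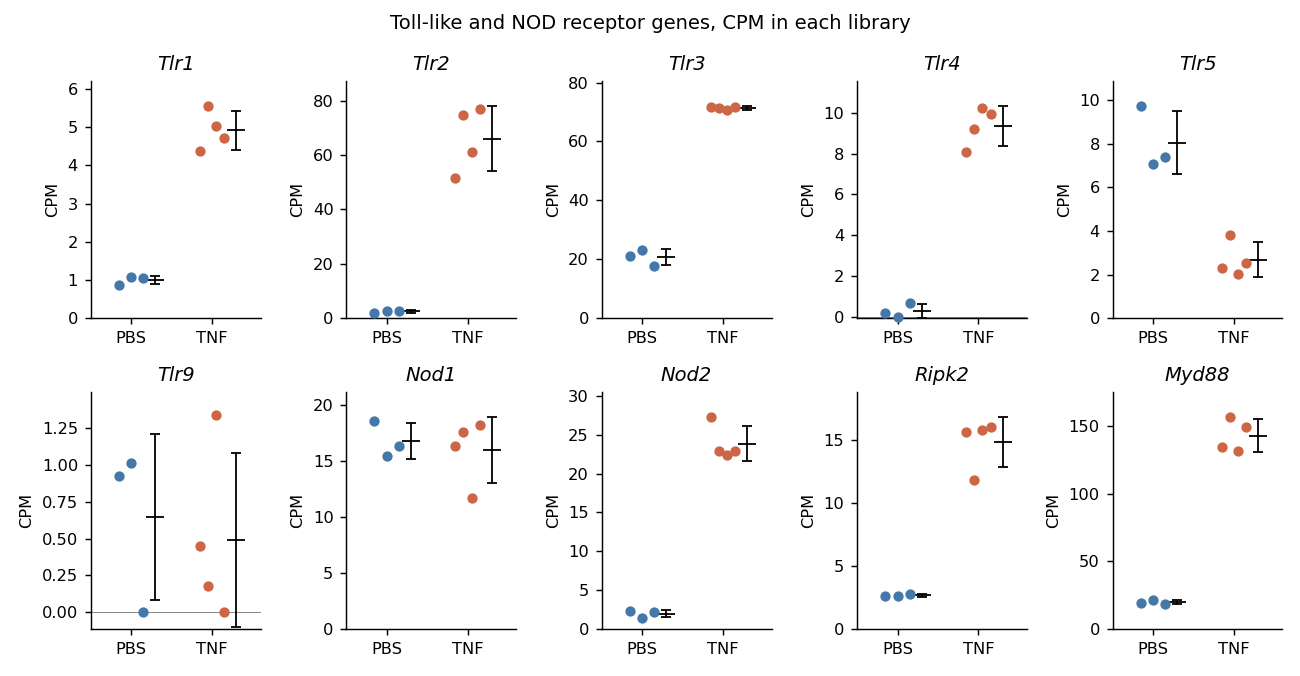
CPM of each Toll-like and NOD receptor gene in every library, with 1 panel and its own linear axis per gene; points are libraries (3 PBS, 4 TNF), and the bar beside them is the mean with the SD. The TNF points lie above all PBS points for 7 genes and below them for Tlr5, and the points overlap for Tlr9 and Nod1.

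Tlr2 (chromosome 3, 83743576 to 83749074 on GRCm39, minus strand) measured 2.04, 2.65 and 2.76 CPM in the PBS libraries and 51.6, 74.6, 61.0 and 76.8 CPM in the TNF libraries. It was low in all controls and high in every TNF library, without overlap. The log2 fold change was 4.72 ± 0.19 (SE), a 26.4-fold rise (edgeR adjusted p = 3.45e-10). Tlr1 (chromosome 5, 65082022 to 65090941), the partner of Tlr2 for triacylated lipopeptides, measured 0.865, 1.07 and 1.06 CPM after PBS and 4.37, 5.54, 5.03 and 4.71 CPM after TNF. It stayed a low-level gene, with 72 to 94 counts in each TNF library, and rose by a log2 fold change of 2.29 ± 0.32 (adjusted p = 3.19e-05).

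The receptors of this heterodimer did not rise equally. The log2 ratio of Tlr1 to Tlr2 counts within a library was -1.28 ± 0.07 (SD, n = 3) in control PCs and -3.73 ± 0.21 (SD, n = 4) in PCs from TNF mice, so that Tlr1 fell 5.44-fold relative to Tlr2. For this ratio an exact permutation test with 35 assignments of the 7 libraries gave p = 0.0286 (two-sided), the smallest p this design allows, and adjustment over the 6 ratios examined left it at 0.0286. Such a ratio does not depend on how libraries are scaled.

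Tlr4 (chromosome 4, 66745783 to 66849936, plus strand) was hardly detected in control PCs, with 3, 0 and 13 counts, or 0.185, 0 and 0.689 CPM. After TNF it had 144, 156, 191 and 152 counts, or 8.06, 9.20, 10.2 and 9.95 CPM. All TNF libraries were above all PBS libraries, and the log2 fold change was 4.97 ± 0.56 (edgeR adjusted p = 6.84e-06). Because so few control counts enter it, this size was imprecise. Leaving out PBS replicate 3 gave 6.67, leaving out PBS replicate 2 gave 4.36, and the gene was called in both cases.

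Transcripts of the factors that hand lipopolysaccharide to Tlr4 rose as well. Ly96, which encodes the MD-2 subunit bound to Tlr4, rose from 2.64 ± 0.783 to 14.0 ± 1.91 CPM (edgeR log2 fold change 2.40 ± 0.24, adjusted p = 1.23e-06). Cd14, the lipopolysaccharide co-receptor, rose from 4.22 ± 0.776 to 30.2 ± 2.26 CPM (2.83 ± 0.16, adjusted p = 8.59e-09). Lbp, the lipopolysaccharide-binding protein, rose from 0.459 ± 0.219 to 21.5 ± 3.25 CPM (5.53 ± 0.29, adjusted p = 3.18e-09). The log2 ratio of Tlr4 to Ly96 was -4.04 ± 2.01 (SD, n = 3) in control PCs and -0.57 ± 0.18 (SD, n = 4) in PCs from TNF mice, which differ by 3.46, with an exact permutation p of 0.0286. With 0 Tlr4 counts in PBS replicate 2, the ratio of that library, -6.23, was set by the pseudocount of 0.5 counts, so the PBS mean and SD and the difference depend on it. Leaving out PBS replicate 2 gave 2.37, and leaving out PBS replicate 3 gave 4.34.

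Monocytes and macrophages also express Tlr2, Tlr4 and Cd14. In these libraries the macrophage gene Csf1r had 0, 0 and 1 counts after PBS and 2, 2, 3 and 7 counts after TNF, all TNF libraries above the controls, with a ratio of the groups of 11.1 (95% interval 1.69 to 471, counting error only). Adgre1, another macrophage gene, had 4, 1 and 11 counts after PBS and 5, 2, 1 and 0 counts after TNF. The neutrophil genes S100a9 and S100a8 had 0 counts in all PBS libraries. S100a9 had 103, 116, 60 and 120 counts in the TNF libraries, at least 106-fold higher against a floor of 3 counts over the PBS group, and S100a8 had 10, 13, 4 and 5 counts, at least 8.48-fold higher. The dendritic cell gene Itgax had 0 counts in the PBS group and 6 in the TNF group. Among the leukocyte markers with enough counts, S100a9 was called higher and the pan-leukocyte gene Ptprc lower (-0.95 ± 0.33, edgeR adjusted p = 0.027). Cd68 (1.04 ± 0.56, adjusted p = 0.125), Lyz2 (-0.23 ± 0.37) and Itgam (0.14 ± 0.59) did not pass the test. The part of other cells in the rise of Tlr2 and Tlr4 was not tested.

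Of the 10 genes listed as co-receptors and trafficking factors, 7 could be tested, of which 3 rose (Ly96, Cd14 and Lbp) and 2 fell, with a median log2 fold change of -0.19. The background over all tested genes was 29.5% higher and 30.1% lower, and with 7 genes the count is not far from it. The falls were those of chaperones that fold Toll-like receptors in the endoplasmic reticulum. Cnpy3 fell from 30.8 ± 4.31 to 19.7 ± 2.11 CPM (edgeR log2 fold change -0.65 ± 0.14, adjusted p = 0.00108). Hsp90b1, which encodes gp96, fell from 570 ± 147 to 391 ± 69.0 CPM (-0.55 ± 0.18, adjusted p = 0.0189). The PBS and TNF libraries overlapped for Hsp90b1, and its call was lost without PBS replicate 1 (-0.34, edgeR adjusted p = 0.113). Unc93b1, the carrier of endosomal Toll-like receptors, measured 52.6 ± 4.21 and 46.2 ± 6.86 CPM (adjusted p = 0.221).

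Tlr5 (chromosome 1, 182782311 to 182805500, plus strand) was the only gene of the 10 that was called lower. It measured 9.70, 7.08 and 7.37 CPM after PBS and 2.30, 3.83, 2.04 and 2.55 CPM after TNF. Every TNF library was below every PBS library, and the fall was 3.00-fold (log2 fold change -1.59 ± 0.28, edgeR adjusted p = 0.000214). The adjusted p stayed between 7.99e-07 and 0.0382 over the 15 other ways of fitting. Markers of tuft, goblet, enterocyte and stem cells also fell, as counted above, and whether Tlr5 transcripts came from such cells was not tested.

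Among the endosomal receptors, Tlr3 (chromosome 8, 45848702 to 45864117, minus strand) measured 21.0, 23.2 and 17.8 CPM after PBS and 71.7, 71.3, 70.7 and 71.9 CPM after TNF. The TNF libraries lay close together and above all PBS libraries, and the rise was 3.45-fold (log2 fold change 1.79 ± 0.12, edgeR adjusted p = 2.36e-08). Ticam1, the adaptor of Tlr3, measured 22.8 ± 2.12 CPM after PBS and 17.4 ± 2.31 CPM after TNF (-0.39 ± 0.14, adjusted p = 0.0305). The ratio of Tlr3 to Ticam1 counts was therefore near 1 in control PCs, with a log2 ratio of -0.15 ± 0.13 (SD, n = 3), and went to 2.04 ± 0.19 (SD, n = 4) after TNF (exact permutation p = 0.0286). This ratio takes no account of gene length. Per kb of exon, the PBS means were 3.86 CPM for Tlr3 and 7.62 CPM for Ticam1. The call of Ticam1 itself was weak, being lost when PBS replicate 1, PBS replicate 2, TNF replicate 3 or TNF replicate 4 was left out (edgeR adjusted p 0.0569 to 0.121).

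Tlr9 (chromosome 9, 106099797 to 106104082, plus strand) had 15, 20 and 0 counts in the PBS libraries and 8, 3, 25 and 0 counts in the TNF libraries. Both groups thus held a library without any count. The log2 fold change of -0.36 ± 1.09 (edgeR adjusted p = 0.791) had a 95% interval from -2.49 to 1.77. The counts varied widely between libraries of the same group, and no difference was detectable beyond this spread. None of the 6 other Toll-like receptor genes had enough counts to be tested. Tlr11, Tlr12 and Tlr13 had 0 counts in every library, whereas the summed counts of the PBS and of the TNF group were 27 and 23 for Tlr6, 2 and 13 for Tlr7, and 0 and 8 for Tlr8.

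**Figure D2:**
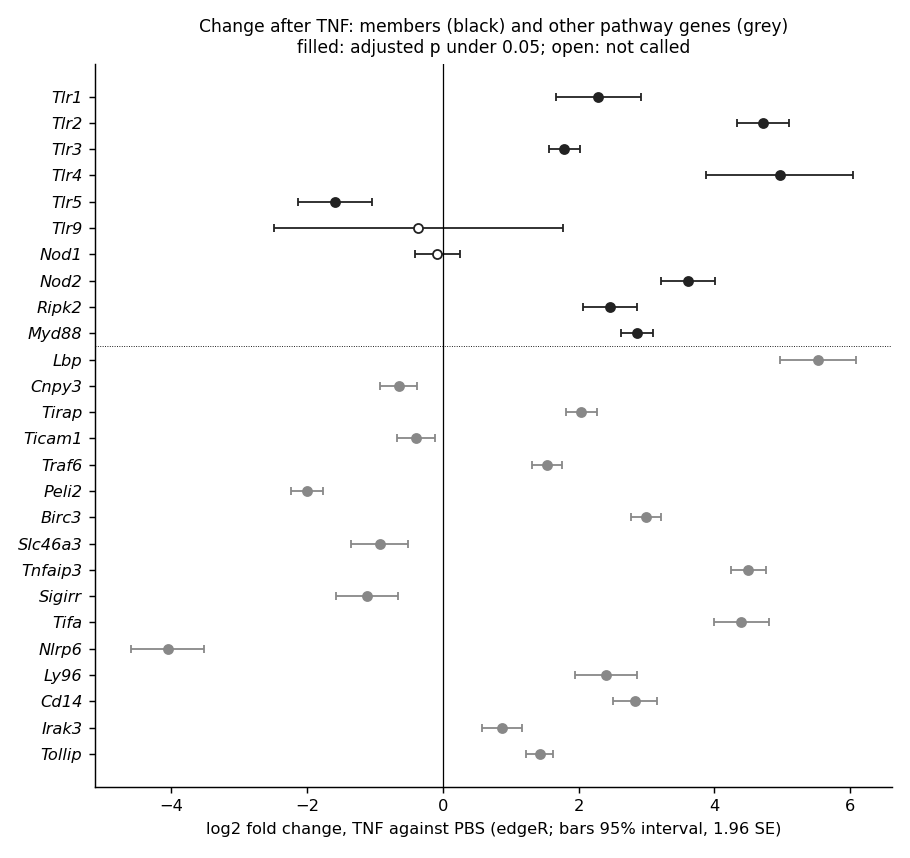
Log2 fold change of each gene, TNF against PBS, from the edgeR fit over 3 PBS and 4 TNF libraries, with its 95% interval as a horizontal bar and a vertical line at no change. The 10 receptor and transducer genes are in black above the dotted line, and filled points passed the test. In grey below the line are the list genes named by the rule given with the processing, without Cxcl2. Tlr4 (4.97) and Tlr2 (4.72) lie farthest right among the black points, Tlr5 lies at -1.59, and the interval of Tlr9 runs from -2.49 to 1.77.

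Nod2 (chromosome 8, 89373943 to 89415102, plus strand) measured 2.29, 1.43 and 2.17 CPM after PBS and 27.3, 22.9, 22.4 and 22.9 CPM after TNF. All TNF libraries were far above the controls, and the log2 fold change was 3.61 ± 0.20, a 12.2-fold rise (edgeR adjusted p = 6.25e-09). Nod1 (chromosome 6, 54900927 to 54949647, minus strand), the receptor for diaminopimelic acid peptides, measured 18.6, 15.5 and 16.3 CPM after PBS and 16.3, 17.6, 11.7 and 18.2 CPM after TNF. The groups overlapped. Its log2 fold change of -0.08 ± 0.17 (adjusted p = 0.72) had a 95% interval from -0.41 to 0.26.

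The NOD receptors thus changed unequally. The log2 ratio of Nod2 to Nod1 counts was -3.01, -3.42 and -2.89 in the PBS libraries and 0.74, 0.38, 0.94 and 0.33 in the TNF libraries. Nod1 had more counts than Nod2 in every control and fewer in every TNF library. The mean ratio moved by 3.70 on the log2 scale, or 13.0-fold (exact permutation p = 0.0286, adjusted over the 6 ratios 0.0286).

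Ripk2 (chromosome 4, 16121400 to 16163796, minus strand), the kinase that both NOD receptors recruit, measured 2.60, 2.65 and 2.81 CPM after PBS and 15.7, 11.9, 15.8 and 16.0 CPM after TNF. It rose without overlap by a log2 fold change of 2.46 ± 0.20, or 5.51-fold (edgeR adjusted p = 1.99e-07). This rise was smaller than that of Nod2. The log2 ratio of Ripk2 to Nod2 fell from 0.48 ± 0.36 (SD, n = 3) to -0.69 ± 0.22 (SD, n = 4), so that the ratio itself fell 2.24-fold (exact permutation p = 0.0286).

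Of the 16 genes listed as NOD partners and muropeptide transporters, 13 could be tested, of which 5 rose and 3 fell (median log2 fold change 0.59). These 8 calls among 13 genes are near the 59.6% called among all tested genes. Birc3, an inhibitor of apoptosis protein that ubiquitinates Ripk2, rose from 23.4 ± 1.67 to 186 ± 12.0 CPM (2.99 ± 0.11, edgeR adjusted p = 2.33e-10). Its relatives Xiap and Birc2 did not pass the test, with log2 fold changes of -0.02 ± 0.13 and -0.11 ± 0.11. Atg16l1, the autophagy protein that binds both NOD receptors, rose by 1.05 ± 0.12 (adjusted p = 4.29e-06). Slc46a3, a lysosomal transporter, fell (log2 fold change -0.93 ± 0.22, adjusted p = 0.00201). Nagk, the kinase that phosphorylates muramyl dipeptide, the Nod2 ligand, fell as well (-0.72 ± 0.15, adjusted p = 0.00111). Slc15a4, another transporter of the list, rose (0.59 ± 0.13, edgeR adjusted p = 0.00163). Its call was lost with scaling by total counts (0.41, edgeR adjusted p = 0.0926).

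Myd88 (chromosome 9, 119165000 to 119170486, minus strand) measured 19.3, 21.2 and 18.5 CPM after PBS and 134, 157, 131 and 149 CPM after TNF. The groups were far apart compared with their spread, 19.7 ± 1.37 (SD, n = 3) against 143 ± 12.1 CPM (SD, n = 4), and the rise was 7.26-fold (log2 fold change 2.86 ± 0.12, edgeR adjusted p = 3.40e-10). In the annotation, 628 bases (16.2%) of the Myd88 exons overlap exons of Acaa1a on the opposite strand, and whether reads were counted by strand is not stated. Acaa1a measured 44.1 CPM after PBS and 36.6 CPM after TNF (-0.27 ± 0.13, adjusted p = 0.0898). It passed the test with scaling by total counts (-0.45, adjusted p = 0.0439) and without TNF replicate 2 (-0.37, adjusted p = 0.0278). Exons of Nod2 (13.7% of their length), Tlr3 (8.19%), Tlr4 (3.35%) and Ripk2 (1.93%) overlap noncoding genes on the opposite strand.

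The adaptors of the Toll-like receptors moved apart from each other. The log2 ratio of Myd88 to Ticam1 went from -0.21 ± 0.13 (SD, n = 3) to 3.04 ± 0.16 (SD, n = 4), so that the ratio itself rose 9.52-fold (exact permutation p = 0.0286). Tirap, the adaptor that bridges Tlr2 or Tlr4 to Myd88, rose from 25.9 ± 2.66 to 107 ± 9.09 CPM (edgeR log2 fold change 2.04 ± 0.12, adjusted p = 7.69e-09). Pik3ap1, also called BCAP, rose by 1.43 ± 0.12 (adjusted p = 2.54e-07). Of the 5 other adaptors, 3 could be tested, with 2 called higher and 1, Ticam1, called lower, too few to set against the 59.6% called among all tested genes. Ticam2, which links Tlr4 to Ticam1, had 10 counts in the whole PBS group and 14 in the whole TNF group and could not be tested.

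**Figure D3:**
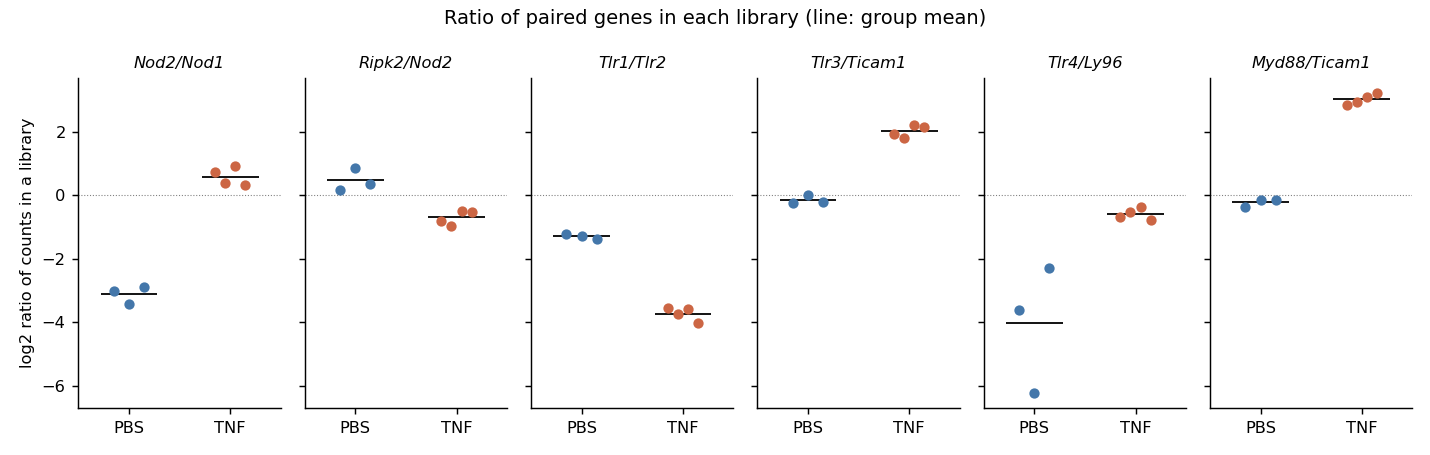
Log2 ratio of the counts of a pair of genes within each library, for 6 pairs, with points for libraries (3 PBS, 4 TNF) and horizontal lines for group means. The PBS and TNF points do not overlap in any pair, and the PBS points of Tlr4 over Ly96 spread from -6.23 to -2.28.

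Below the receptors, all 14 listed kinases and ubiquitin ligases could be tested, with 8 called higher, 3 lower (29.5% and 30.1% among all tested genes) and a median log2 fold change of 0.37. Traf6, the ubiquitin ligase after Myd88, rose from 45.1 ± 4.56 to 131 ± 10.9 CPM (1.54 ± 0.11, edgeR adjusted p = 7.11e-08). Irak2, a kinase that Myd88 recruits, rose by 0.91 ± 0.12 (adjusted p = 1.69e-05). Peli2, a Pellino ubiquitin ligase, fell 3.99-fold, from 52.8 ± 3.74 to 13.2 ± 1.09 CPM (-2.0 ± 0.12, adjusted p = 9.74e-09). Tab1, a subunit of the Tak1 kinase complex, also fell (-1.35 ± 0.15, adjusted p = 4.18e-06). Other genes of these families rose. Map3k7, which encodes Tak1 itself, rose by 0.58 ± 0.10 (edgeR adjusted p = 0.000243) and Tab3 by 0.81 ± 0.11 (adjusted p = 2.15e-05). Peli1 rose by 0.47 ± 0.10 (adjusted p = 0.00131) and Peli3 by 0.98 ± 0.25 (adjusted p = 0.00382). The call of Peli1 was lost with scaling by total counts (0.31, edgeR adjusted p = 0.109). The calls of Traf3 (0.28 ± 0.11, adjusted p = 0.0435), Tab2 (0.25 ± 0.10, adjusted p = 0.0431) and Irak4 (-0.42 ± 0.17, adjusted p = 0.0432) lay near the threshold and were not stable. Over the 15 alternatives the call was lost in 10 for Traf3, in 12 for Tab2 and in 9 for Irak4. The list had 5 genes higher and 3 lower with scaling by total counts, and 6 higher and 2 lower with the DESeq2 test.

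Of the 8 tested inhibitors of the pathway, 5 were called higher and 2 lower (29.5% and 30.1% among all tested genes), with a median log2 fold change of 1.15. Tnfaip3, which encodes the deubiquitinase A20, rose 22.6-fold, from 15.4 ± 0.922 to 349 ± 37.8 CPM (4.50 ± 0.13, edgeR adjusted p = 3.65e-11). Tollip rose by 1.43 ± 0.10 (adjusted p = 6.37e-08), and Irak3, an inhibitory relative of the Irak kinases, rose by 0.87 ± 0.15 (adjusted p = 0.00018). Sigirr, a membrane inhibitor of Toll-like and interleukin-1 receptors, fell from 19.6 ± 1.54 to 9.001 ± 3.196 CPM (-1.12 ± 0.24, adjusted p = 0.0011). The other fall, that of Rnf216 (-0.28 ± 0.10, adjusted p = 0.0238), was not called without PBS replicate 1 or PBS replicate 2 (edgeR adjusted p 0.0705 and 0.0532).

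Known outputs of these receptors, which TNF can also induce directly, had the highest median of the lists, 5.92, with 10 of 11 tested genes called higher and 0 lower, where 29.5% and 30.1% of all tested genes were. Cxcl2, a neutrophil-attracting chemokine, had 0 counts in all PBS libraries and a mean of 92.0 ± 23.9 CPM after TNF, at least 1653-fold higher against a floor of 3 counts over the PBS group. Reg3g rose from 876 ± 410 to 31142 ± 5234 CPM (edgeR log2 fold change 5.15 ± 0.37, adjusted p = 5.87e-08). Ptgs2 was the tested gene without a call (-0.98 ± 0.89, adjusted p = 0.364), Il1b had 0 counts in every library, and Il6 had 4 counts in all, from TNF replicate 2. The call of Nfkbiz (0.48 ± 0.19, adjusted p = 0.0474) was lost when any library other than TNF replicate 3 was left out (adjusted p 0.0544 to 0.163).

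Other microbial sensors were called higher in 10 of 14 and lower in 3 of 14, with a median log2 fold change of 0.70. Tifa, which relays sensing of bacterial ADP-heptose by Alpk1, rose 21.0-fold, from 82.6 ± 13.9 to 1734 ± 342 CPM (4.39 ± 0.21, edgeR adjusted p = 1.06e-09). Sting1, the receptor for cyclic dinucleotides, rose by 4.33 ± 0.17 (adjusted p = 2.93e-10). Nlrp6, an inflammasome receptor of the intestinal epithelium, fell from 92.6 ± 28.4 to 5.54 ± 1.77 CPM (-4.05 ± 0.27, adjusted p = 8.36e-07). Over all 91 other genes of the lists, 70 could be tested, of which 43 were called higher and 14 lower, with a median of 0.77, against 29.5% higher and 30.1% lower among all tested genes.

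**Figure D4:**
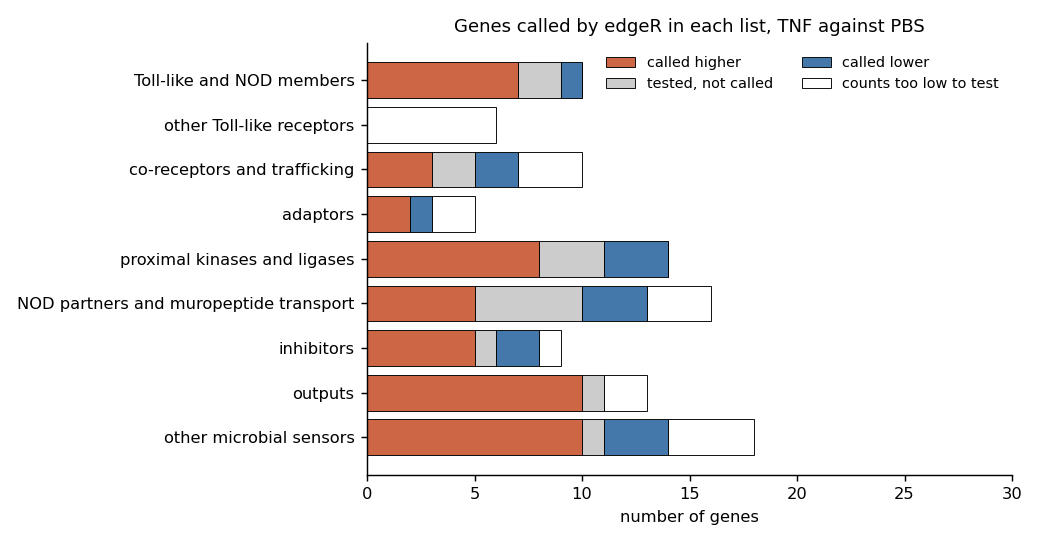
Number of genes in each list that edgeR called higher, did not call or called lower after TNF (adjusted p under 0.05 over all 14329 tested genes), with genes too low to test in white. The 10 Toll-like and NOD receptor genes stand in the top bar, with 7 higher and 1 lower, and the outputs have 10 higher and 0 lower.

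Levels of different genes were compared per kilobase of annotated exon. In control PCs, Myd88 was first with 5.06 ± 0.353 CPM per kb (SD, n = 3), followed by Tlr3 with 3.86 ± 0.513, Nod1 with 2.84 ± 0.273 and Tlr5 with 1.20 ± 0.214, each with a range of libraries separate from the next. Ripk2 (0.458), Tlr2 (0.451), Nod2 (0.391), Tlr1 (0.295), Tlr9 (0.186) and Tlr4 (0.0416 CPM per kb) followed, and neighbours among these overlapped.

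After TNF, Myd88 was again first with 36.7 ± 3.10 CPM per kb (SD, n = 4), separate from Tlr3 (13.4 ± 0.0981) and Tlr2 (12.0 ± 2.16), whose ranges overlapped. Nod2 came next with 4.75 ± 0.455 and was separate from Nod1 (2.69 ± 0.499) and Ripk2 (2.53 ± 0.341), which overlapped each other. Tlr1 (1.45 ± 0.148) and Tlr4 (1.34 ± 0.138) overlapped, although per kb of the longest transcript Tlr4 measured 2.27 and Tlr1 1.61, and Tlr5 (0.398 ± 0.119) and Tlr9 (0.141 ± 0.171) were last and overlapped too. Tlr5 thus went from the fourth to the ninth place and Tlr2 from the sixth to the third.

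**Figure D5:**
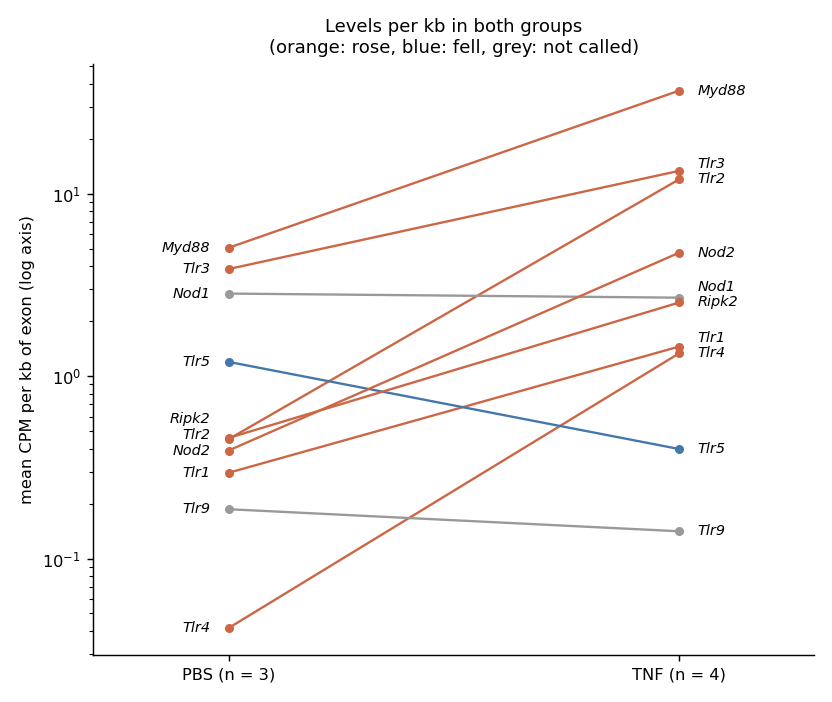
Mean level of each gene in CPM per kb of exon on a log axis, in PBS (n = 3) and TNF (n = 4) libraries, with a line joining the means of a gene. Nod1 lies at 2.84 and 2.69 CPM per kb, Tlr5 falls from 1.20 to 0.398, and Tlr2 climbs from 0.451 to 12.0.

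As a share of the summed level per kb of the 6 Toll-like receptors, Tlr3 made up 63.9% ± 2.64 (SD, n = 3) in control PCs and 46.8% ± 3.94 (SD, n = 4) in PCs from TNF mice. Tlr2 went from 7.58% ± 1.76 to 41.6% ± 4.26, and Tlr5 from 19.9% ± 3.40 to 1.38% ± 0.342. The sum itself went from 6.04 ± 0.617 to 28.7 ± 2.33 CPM per kb. The shares of Tlr3, Tlr2 and Tlr5 did not overlap between the groups, whereas those of Tlr1 (4.07% to 5.88% after PBS, 4.55% to 5.38% after TNF) and Tlr9 (0% to 4.51%, 0% to 1.38%) did. Tlr4 went from 0.755% ± 0.967 to 4.66% ± 0.398.

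The genes whose profiles over the 7 libraries were most like those of Nod2 and Myd88 were searched among 12428 tested genes, by the root mean square distance of centred log2 CPM. Closest to Nod2 were Slc28a3 (distance 0.141), Pvr (0.195) and Rdh10 (0.206). Closest to Myd88 were Tuba1c (0.069), Parp14 (0.079) and Zwint (0.089). Within a distance of 0.2 there were 45 genes for Myd88 and 2 for Nod2. These profiles are set mainly by the step between the groups, and the distances are a description.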

How the data were processed

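Sorted PCs from 3 PBS and 4 TNF mice were profiled by bulk RNA-seq, with RNA from the Aurum Total RNA Mini kit and single-end reads on an Element AVITI. The authors deposited raw counts per Ensembl gene; the submitters' processing notes name FastQC, Trimmomatic 0.39, STAR 2.7.10a and DESeq2, and the builds mm10 and mm39. The build and strand setting behind the counts are not stated, so overlapping genes are uncertain. Of the identifiers, 54749 (98.8%) were found in GENCODE M39 (GRCm39), which gave symbols, coordinates and exon lengths.

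Counts were fitted with edgeR 4.0.16 in R 4.3.3 (quasi-likelihood test, robust, two-sided, filterByExpr, TMM, no covariates) over all 14329 tested genes, with Benjamini-Hochberg adjustment. SE is the fitted change divided by the root of its F statistic. Ratios within libraries used a pseudocount of 0.5 counts and an exact permutation test. CPM are scaled to library sizes after TMM, intervals of fold changes are 1.96 SE and include the spread between libraries, and the interval of a ratio of counts and the floors cover counting error only. Replicates of a number in both groups did not deviate together.

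The 10 genes, the lists and the alternatives were chosen with earlier results of these data known, and the motif letters with the promoter windows in view. Besides the 10 genes, the rule named, per list, the called genes with the largest rise and the largest fall at a mean of at least 1 CPM, then Ly96, Cd14, Ticam1, Irak3 and Tollip, and the 3 nearest profiles of Nod2 and Myd88 (symbols of Gm and a number or ending in Rik left out). Other genes named were chosen after their values were seen. Alternatives comprised DESeq2 1.42.0 size factors, scaling by total counts, scaling without alpha-defensins and Lyz1, no filter, at least 1 CPM in 3 libraries, the DESeq2 test, a replicate block, a test against a 2-fold change, and leaving out each library.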

Additional observations from a re-analysis of the deposited data

Results flagged for a closer look

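Among the 4 TNF libraries, 33 values were examined for a library far from the others, by Dixon's ratio (the gap to the nearest library over the whole range) and its 95% critical value. Chance puts about 1 in 20 groups past it, and 3 values passed. Nod2 was highest in TNF replicate 1, at 27.26 CPM against 22.4 to 22.9 CPM in the others (ratio 0.893). Ripk2 was lowest in TNF replicate 2, at 11.85 CPM against 15.7 to 16.0 CPM (ratio 0.913). Ly96 was highest in TNF replicate 4, at 16.82 CPM against 12.9 to 13.1 CPM (ratio 0.931). A different library stood apart each time, and the call of each of these genes was the same without it.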

How the results depend on the processing

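The calls of the 10 genes, 7 higher and 1 lower, were the same under all 15 alternatives, although Tlr9 was too low to be tested with the filter of 1 CPM or without TNF replicate 3. Scaling by total counts called 5 of the proximal kinases and ligases higher, and without a filter 1 inhibitor was lower. With the replicate number as a block, 7131 genes were called (3553 higher, 3578 lower), 1 co-receptor, 1 inhibitor and 0 adaptors were lower, and Ticam1 (-0.36, edgeR adjusted p = 0.0946) lost its call. The deviations of same-numbered libraries had correlations of -0.237, -0.029 and -0.142, so the numbers give no pairing. Tested against a 2-fold change, 2661 genes were called (1225 higher, 1436 lower), with 0 co-receptors, 0 adaptors, 0 NOD partners and 0 inhibitors lower, and 1 proximal kinase or ligase, 1 NOD partner and 3 other sensors higher. Over all lists that left 23 higher and 5 lower. The cause of these losses is the stricter null. Leaving out 1 library gave 7663 to 8625 called genes, 0 to 1 adaptors lower (0 without PBS replicate 1, PBS replicate 2, TNF replicate 3 or TNF replicate 4), 1 to 2 co-receptors lower (1 without PBS replicate 1) and 1 to 2 inhibitors lower (1 without PBS replicate 1 or 2). The log2 ratios then moved by 3.55 to 3.81 (Nod2/Nod1), -1.31 to -0.96 (Ripk2/Nod2), -2.50 to -2.35 (Tlr1/Tlr2), 2.13 to 2.26 (Tlr3/Ticam1), 2.37 to 4.34 (Tlr4/Ly96) and 3.18 to 3.31 (Myd88/Ticam1), where 6 libraries allow no exact p below 0.0667 (2 against 4) or 0.1 (3 against 3). Per kb of the longest transcript, levels were 4.45 and 15.4 CPM per kb after PBS and TNF for Tlr3, 0.641 and 3.54 for Ripk2, 5.89 and 42.8 for Myd88, 1.54 after PBS for Tlr5, 3.23 after PBS for Nod1, and 1.61 and 2.27 after TNF for Tlr1 and Tlr4. Tlr4 then stood above Tlr1 and Ripk2 above Nod1 after TNF. Few counts stand behind Tlr4 after PBS and Tlr9 in both groups, and for Tlr9 the libraries of a group also varied widely.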
